A study of Homo sapiens with 8 samples.

Results

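The aminoacyl-tRNA synthetases are the enzymes that join each amino acid to its transfer RNA (tRNA). The set described here holds 38 genes, namely 19 for enzymes of the cytosol, 16 for enzymes of the mitochondrion and 3 for scaffold proteins of the cytosolic multisynthetase complex. They were chosen by name, and every probe set of the array whose only gene symbol was 1 of the 38 was taken. This gave 70 probe sets for 33 genes, out of 54675 probe sets and 19775 genes with a symbol of their own. The 33 measured genes were 17 of the cytosolic enzymes, 15 of the mitochondrial enzymes and 1 of the scaffolds, AIMP1. MARS1, QARS1 and TARS2 had only probe sets shared with other symbols (3, 1 and 1), and no probe set was found for AIMP2 and EEF1E1, so these 5 genes were not analysed here.

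Expression was measured on Affymetrix arrays in RPMI-8226 and JJN3, established human multiple myeloma lines, which are malignant plasma cells. Each line gave 4 cultures with 1 array each. These were cells with no virus, cells infected with lentivirus carrying a non-targeted (NT) shRNA, cells with an shRNA against XBP1, and cells with an shRNA against IRE1, the product of ERN1. Infection ran for 16 h with 8 µg/mL polybrene and RNA was taken at 96 h. The lines carry no other stated alteration, and the labels name 1 shRNA per target, so an effect of the target and an off-target effect of that shRNA cannot be told apart. The 2 lines are the replicates of each treatment (n = 2), so p-values between treatments measure the spread between arrays of 2 lines and not between repeat cultures. Between the lines, the 4 unlike treated cultures of each line stand as its replicates. Those p-values measure the spread of the line difference over treatments, and neither that between repeat cultures nor that between further lines. Arrays with the XBP1 or the IRE1 shRNA are called silenced, and NT shRNA and uninfected arrays are called controls.

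A synthetase recognises its amino acid and its tRNAs and supplies the charged tRNA to the ribosome, so protein synthesis depends on the whole set. Most organellar enzymes are encoded by separate nuclear genes, with symbols that end in 2, while GARS1 and KARS1 serve both compartments from 1 gene. Many genes for cytosolic enzymes are known targets of ATF4, a transcription factor made when eIF2alpha kinases sense amino acid shortage or endoplasmic reticulum stress, whereas IRE1 and XBP1 form a parallel branch of the response to unfolded proteins that plasma cells use to build their secretory machinery. Of the 17 measured cytosolic genes, 11 have been reported as ATF4 dependent (AARS1, CARS1, EPRS1, GARS1, IARS1, LARS1, NARS1, SARS1, TARS1, WARS1 and YARS1) and 6 have not been placed in that list here (FARSA, FARSB, HARS1, KARS1, RARS1 and VARS1).

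The element to which ATF4 binds with C/EBP partners is shown first because ATF4 is known to act on many of its target genes through it. Promoter windows from 250 bases before to 50 bases after each gene start were taken from RefSeq (GRCh38.p14), and 28 of the 33 genes had at least 1 window. The letters TGATGNAA were searched on both strands. They were found in 6 of the 9 reported ATF4 targets that had a window, in 0 of 5 other cytosolic genes and in 1 of 13 mitochondrial genes (YARS2), against 4.46% of the 27305 genes with a window. The match is in capitals, read 5′ to 3′ on the strand of the gene.
AARS1: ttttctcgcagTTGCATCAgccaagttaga
CARS1: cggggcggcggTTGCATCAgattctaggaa
GARS1: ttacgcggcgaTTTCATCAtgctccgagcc
IARS1: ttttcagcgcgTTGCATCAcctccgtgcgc
NARS1: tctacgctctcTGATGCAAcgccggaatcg
TARS1: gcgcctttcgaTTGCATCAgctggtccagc
YARS2: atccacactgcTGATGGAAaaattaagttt

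These stretches lie at chr16:70289675-70289704 (minus strand) for AARS1, chr11:3057407-3057436 (minus) for CARS1, chr7:30594834-30594863 (plus) for GARS1 and chr9:92293692-92293721 (minus) for IARS1. Those of NARS1, TARS1 and YARS2 lie at chr18:57621804-57621833 (minus), chr5:33440956-33440985 (plus) and chr12:32756076-32756105 (minus). Relative to the annotated gene start the matches began at -187 in AARS1, -2 in CARS1, -33 in GARS1, -13 in IARS1, 15 in NARS1, 3 in TARS1 and -197 in YARS2, so those of NARS1 and TARS1 lie within the transcribed sequence. Of the 7 matches, 4 hold the same letters, TTGCATCA, and NARS1 holds their reverse complement. EPRS1, SARS1 and WARS1 had a window and no match, which says only that these letters are not in that window. A match is a description of sequence and no evidence of binding. The E-box letters CACGTG were found in 1 of the 9 reported ATF4 targets (IARS1), in 0 of 5 other cytosolic genes and in 3 of 13 mitochondrial genes (CARS2, EARS2 and MARS2), against 8.77% of all genes. The core letters of an element bound by XBP1, TGACGTGG, were found in CARS1 and CARS2, against 0.927% of all genes.

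The deposited values are centred, so that every probe set has a median of 0 over the 8 arrays. They give differences between arrays on what is taken as a log2 scale, but no level, and neither the order of abundance of the enzymes nor the presence of plasma cell markers could be read from them. XBP1 was at 0.02 on the NT shRNA array, -0.58 on the XBP1 shRNA array and -0.60 on the array labelled IRE1 shRNA in RPMI-8226, and at 1.11, -0.02 and -1.47 in JJN3. ERN1 in the same order was at 1.73, 0.29 and 2.11 in RPMI-8226, and at -0.35, -1.57 and -1.24 in JJN3. The mRNA of the target was thus not lower than with NT shRNA on the RPMI-8226 array labelled IRE1 shRNA. Against the uninfected RPMI-8226 array, where ERN1 stood at 2.75, it differed by -0.64, and the NT shRNA array by -1.02. In both lines ERN1 was lower on the array labelled XBP1 shRNA than on the array labelled IRE1 shRNA, and XBP1 was at its lowest on the array labelled IRE1 shRNA, which differed from the XBP1 shRNA array by -0.03 in RPMI-8226 and -1.44 in JJN3. The target mRNAs therefore do not tell the 2 shRNAs apart as labelled, and every direction drawn from the RPMI-8226 array labelled IRE1 shRNA, or between the shRNAs in either line, rests on the labels. A second ERN1 probe set, 227755_at, gave the same order (0.64, -0.72 and 0.87 in RPMI-8226, and -0.10, -1.48 and -1.26 in JJN3). The third, 207061_at, did not (0.21, 0.07 and 0.03 in RPMI-8226, and -0.22, -0.23 and -0.03 in JJN3). The second XBP1 set, 242021_at, stood at 0.33, 0.13 and 0.33 in RPMI-8226 and at -0.23, -0.20 and -0.13 in JJN3. It was thus not lowest on the array labelled IRE1 shRNA in either line. The median of the 10 plasma cell markers lay between 0.05 and 0.99 on the 4 control arrays and between -0.43 and -0.08 on the 4 silenced arrays. Gene by gene, 9 of the 10 had a negative silenced minus control difference and JCHAIN a positive one (0.03). For 3 (PRDM1, MZB1 and XBP1) both silenced arrays were below both controls in each line, where 4.76% of all genes were. In this comparison 0 passed the limma threshold. The same 3 were lower at an unadjusted p under 0.05, where 5.58% of all genes were. With XBP1 shRNA against NT shRNA, PRDM1 (-1.23, limma adjusted p = 0.0219) and IRF4 (-1.06, limma adjusted p = 0.0436) passed, where 1.24% of all genes were called lower. SDC1 (0.34) and JCHAIN (0.07) were positive there and the others negative. With IRE1 shRNA, IRF4 (0.12), TNFRSF17 (0.17), POU2AF1 (0.17) and JCHAIN (0.30) were positive and the others negative. IRF4, PRDM1 and POU2AF1 were higher with IRE1 than with XBP1 shRNA (limma adjusted p = 0.0228, 0.0341 and 0.0337), where 1.6% of all genes were called higher. XBP1 is itself the target of an shRNA. Without it the medians pooled over the lines overlapped, from 0.03 to 0.97 on controls and from -0.28 to 0.27 on silenced arrays. Within a line they did not overlap. In RPMI-8226 they were 0.03 and 0.07 on the controls and -0.28 and -0.05 on the silenced arrays, and in JJN3 0.97 and 0.46 against -0.13 and 0.27. Pooled over the lines, the medians of the other marker lists overlapped between control and silenced arrays, from -0.31 to 0.25 and from -0.23 to 0.26 for T and NK cells, from -0.24 to 0.13 and from -0.07 to 0.15 for myeloid cells, from -0.33 to 0.24 and from -0.42 to 0.38 for stromal and epithelial cells, and from -0.04 to 0.29 and from -0.33 to 0.19 for erythroid cells. Within a line some did not overlap. In RPMI-8226 the stromal and epithelial median was 0.18 and 0.24 on the controls and 0.38 and 0.32 on the silenced arrays. In JJN3 the myeloid median was -0.24 and -0.14 against -0.07 and -0.0028, and the erythroid median, over 2 genes, was 0.29 and 0.10 against -0.33 and -0.06. The part of these lists in the results was not tested. In the limma fit across 19775 genes, 246 genes fell and 190 rose with XBP1 shRNA against NT shRNA, 9 fell and 3 rose with IRE1 shRNA, and 0 passed for silenced against control arrays, where 1992 had an unadjusted p under 0.05.

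**Figure D1:**
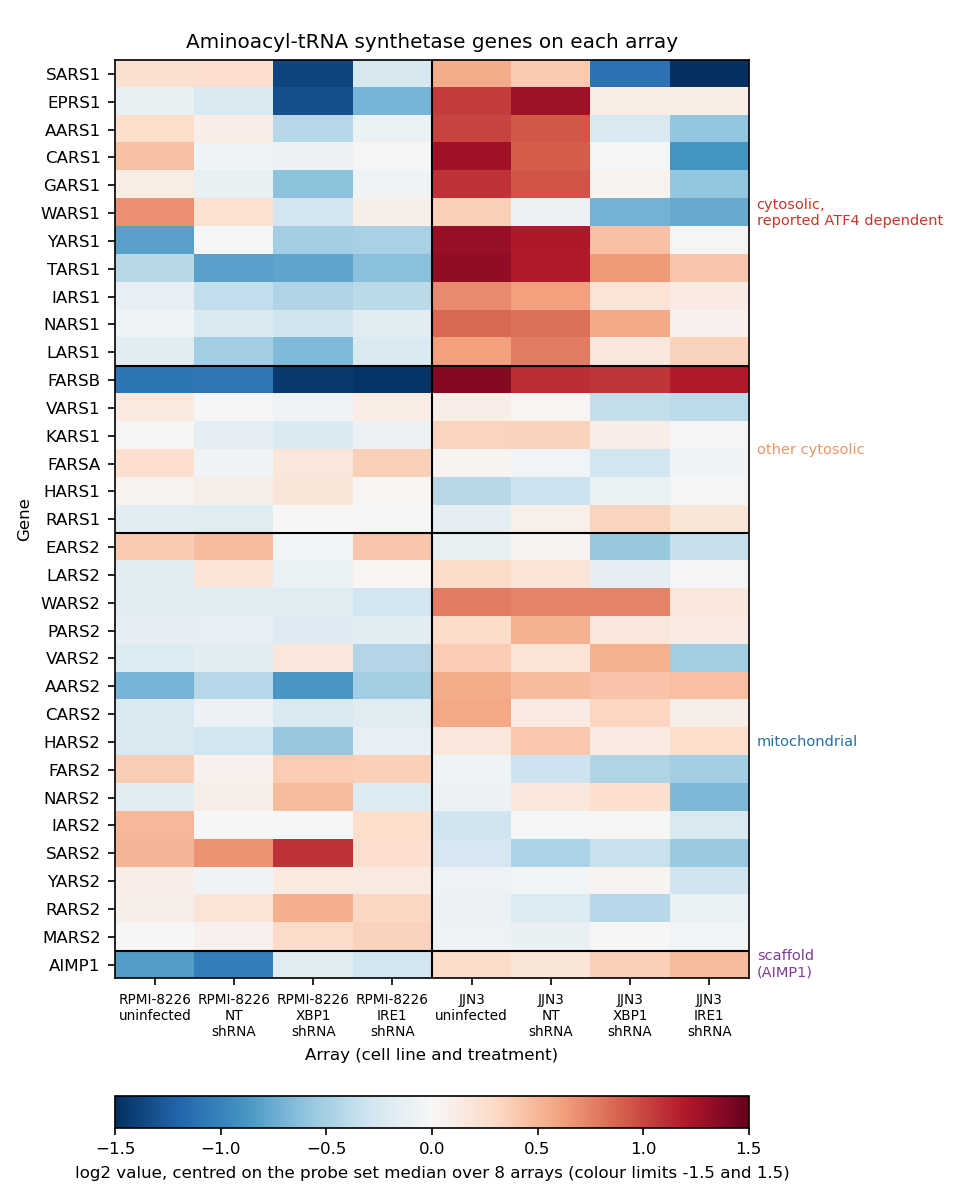
Centred log2 value (colour, blue low and red high) of the 33 measured genes (rows, grouped as reported ATF4-dependent cytosolic, other cytosolic, mitochondrial and scaffold) on the 8 arrays (columns, by line and treatment). In JJN3 the 11 genes of the upper block are lower on both silenced arrays than on both control arrays, while most mitochondrial genes show small differences.

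The first question was what the shRNA against XBP1 did to the synthetases. EPRS1, the bifunctional enzyme that charges both glutamate and proline tRNAs, fell by 1.12 on the log2 scale against NT shRNA (SE 0.19, n = 2 lines, limma adjusted p = 0.0273). It was the only 1 of the 33 genes past the threshold of 0.05, where 1.24% of all genes were called lower and 0.961% higher. In RPMI-8226 EPRS1 stood at -0.11 on the uninfected array, -0.23 on the NT shRNA array, -1.31 on the XBP1 shRNA array and -0.70 on the array labelled IRE1 shRNA. In JJN3 the values in the same order were 1.05, 1.27, 0.11 and 0.12. Both silenced arrays were below both controls in each line, and the XBP1 shRNA array held 47.0% and 44.8% of the NT shRNA level in RPMI-8226 and JJN3, if the scale is log2. All 3 EPRS1 probe sets were lower in both lines with XBP1 shRNA, with values between -0.47 and -1.16. The call was lost with the mean of the probe sets (-0.85, limma adjusted p = 0.0836). It was also lost without the NT shRNA array of either line (limma adjusted p = 0.134 without that of RPMI-8226 and 0.189 without that of JJN3).

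SARS1, which charges serine tRNAs, had the largest difference with XBP1 shRNA and lay just outside the threshold (-1.56, SE 0.34, limma adjusted p = 0.0524). Its RPMI-8226 values were 0.23 for no virus, 0.25 for NT shRNA, -1.38 for XBP1 shRNA and -0.23 on the array labelled IRE1 shRNA. In JJN3 it stood at 0.56, 0.39, -1.11 and -1.49. The silenced arrays were below the controls in both lines, but the RPMI-8226 array labelled IRE1 shRNA lay closer to its controls than to the XBP1 shRNA array. The 2 SARS1 probe sets differed in size. With XBP1 shRNA the set 231894_at gave -1.63 and -1.50 in RPMI-8226 and JJN3, and 200802_at gave -0.29 and -0.70.

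AARS1, the alanine enzyme, differed by -0.84 (SE 0.29, adjusted p = 0.184) with XBP1 shRNA. Its values were 0.26, 0.10, -0.43 and -0.10 in RPMI-8226 and 1.01, 0.93, -0.23 and -0.59 in JJN3, with silenced arrays below controls in both. WARS1, the tryptophan enzyme, whose gene also responds to interferon, differed by -0.57 (SE 0.18, adjusted p = 0.148). It stood at 0.69, 0.23, -0.29 and 0.09 in RPMI-8226 and at 0.36, -0.09, -0.71 and -0.76 in JJN3, again without overlap between silenced and control arrays. Over the 11 reported ATF4 targets, 11 had a negative difference with XBP1 shRNA, with a median of -0.57 (by line, RPMI-8226 -0.50 and JJN3 -0.76), against -0.08 for the 6 other cytosolic genes, 0.03 for the 15 mitochondrial genes and -0.00044 for all genes. At an unadjusted p under 0.05, 5 members were lower (EPRS1, SARS1, AARS1, WARS1 and EARS2) and 1 was higher (AIMP1), where 8.34% and 7.49% of all genes were. The poly-A control transcripts were also highest on the XBP1 shRNA array of each line, with a median in RPMI-8226 of 0.41 against 0.24 for NT shRNA and in JJN3 of 0.12 against -0.06, and their part in these differences was not tested.

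At the other end, AIMP1, the scaffold and cytokine precursor of the complex, had the largest positive difference with XBP1 shRNA (0.52, SE 0.19, adjusted p = 0.224). It stood at -0.84, -1.03, -0.18 and -0.29 in RPMI-8226 and at 0.28, 0.18, 0.36 and 0.47 in JJN3, so both silenced arrays lay above both controls in each line. Its 3 probe sets disagreed, since 202542_s_at gave 0.03 and -0.11 in RPMI-8226 and JJN3 where 227605_at gave 0.86 and 0.18. VARS2 (0.33, adjusted p = 0.44) and SARS2 (0.27, adjusted p = 0.563), the mitochondrial valine and serine enzymes, followed, and neither passed the test.

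**Figure D2:**
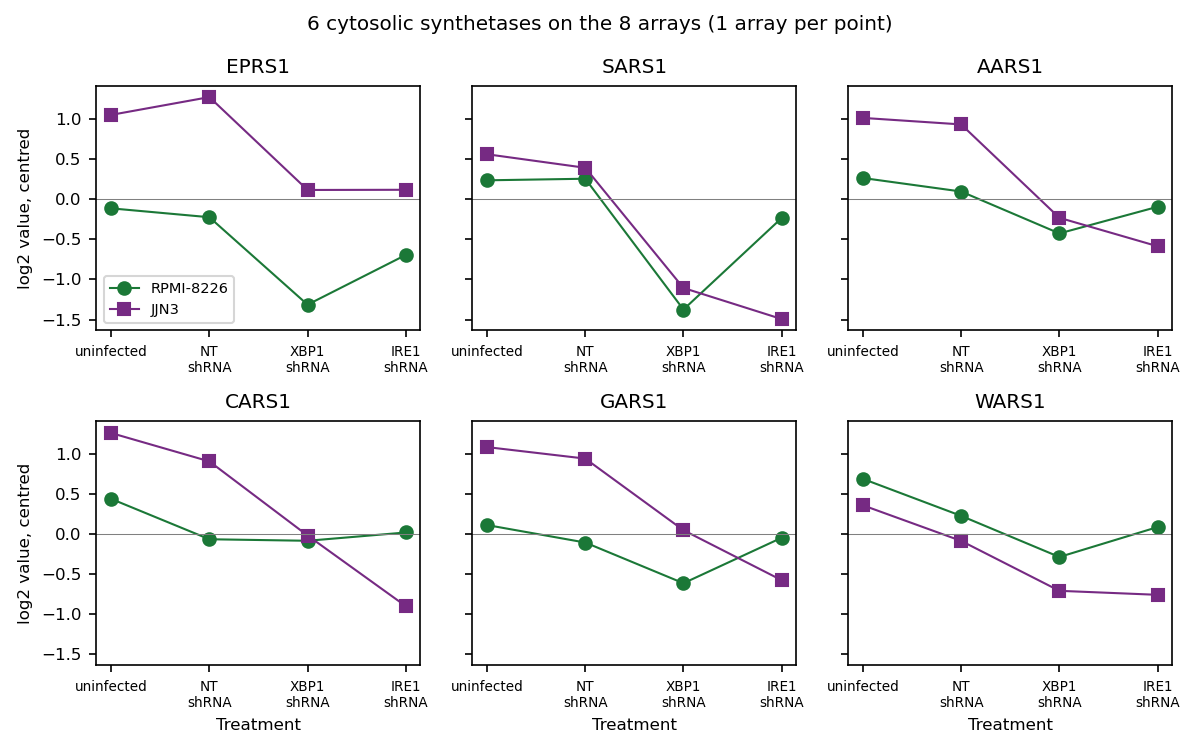
Centred log2 values of EPRS1, SARS1, AARS1, CARS1, GARS1 and WARS1 (panels) by treatment, with 1 array per point (circles, RPMI-8226; squares, JJN3). In JJN3 both silenced arrays lie below both controls in every panel, whereas in RPMI-8226 the array labelled IRE1 shRNA lies close to NT shRNA for CARS1 (0.02 against -0.07) and GARS1 (-0.05 against -0.11).

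The second question was what the shRNA against IRE1 did. No member passed the threshold against NT shRNA (limma), where 0.0455% of all genes were called lower and 0.0152% higher. At an unadjusted p under 0.05, 8 members were lower (EPRS1, SARS1, AARS1, CARS1, WARS1, YARS1, NARS2 and VARS2) and 1 was higher (AIMP1), where 5.88% and 4.69% of all genes were. This comparison shares its NT shRNA arrays with the preceding one. Over the 11 reported ATF4 targets the median difference was -0.04 in RPMI-8226, with 6 of 11 negative, and -1.15 in JJN3, with 11 of 11 negative. The fitted median was -0.73, against -0.01 for the other cytosolic genes, -0.06 for the mitochondrial genes and -6.0e-05 for all genes. Without the JJN3 array labelled IRE1 shRNA the fitted median of the 11 was -0.12, and without the RPMI-8226 array it was -1.09.

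The largest differences with IRE1 shRNA were those of SARS1 (-1.19, SE 0.34, adjusted p = 0.237), CARS1 (-0.86, SE 0.38, adjusted p = 0.472) and AARS1 (-0.85, SE 0.29, adjusted p = 0.315). Without the RPMI-8226 array labelled IRE1 shRNA, SARS1 differed by -1.94, but that fit holds only 1 array with IRE1 shRNA, that of JJN3. CARS1, the cysteine enzyme, stood at 0.44, -0.07, -0.08 and 0.02 in RPMI-8226 and at 1.26, 0.90, -0.02 and -0.90 in JJN3. Its JJN3 array with IRE1 shRNA held 28.6% of the NT shRNA level and its RPMI-8226 array 106.0%, the latter a difference of only 0.08. Against NT shRNA the 2 lines thus differed in direction, but against uninfected cells both were lower, by -0.42 in RPMI-8226 and -2.16 in JJN3. For SARS1, AARS1 and GARS1 the percentages of the NT shRNA level in JJN3 were 27.1%, 34.9% and 35.0%, and in RPMI-8226 they were 71.2%, 87.6% and 104.2%. The hybridisation controls of the JJN3 array labelled IRE1 shRNA had a median of 0.42, the other 3 arrays of that line lying between -0.0047 and 0.05, and their part in these values was not tested. FARSA, a subunit of the phenylalanine enzyme, and MARS2, the mitochondrial methionine enzyme, had the largest positive differences after AIMP1, at 0.20 (adjusted p = 0.779) and 0.18 (adjusted p = 0.788). FARSA stood at 0.25, -0.05, 0.17 and 0.36 in RPMI-8226 and at 0.04, -0.04, -0.28 and -0.05 in JJN3, so that only its RPMI-8226 array labelled IRE1 shRNA lay above both controls. MARS2 stood at 0.01, 0.07, 0.28 and 0.35 and at -0.08, -0.11, -0.01 and -0.04, above the controls on all 4 silenced arrays.

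For both shRNAs at once, 4 silenced arrays were set against 4 controls. Unlike treatments stand as replicates in each group. The SE and p of this fit thus also hold differences between the 2 shRNAs and between NT shRNA and uninfected cells. No member passed the threshold and no gene of the array did (0% in either direction). At an unadjusted p under 0.05, 10 members were lower and 2 were higher, where 5.58% and 4.49% of all genes were. Of the 10, 9 were reported ATF4 targets and the other was EARS2, the mitochondrial glutamate enzyme (-0.33, SE 0.13). The 2 higher were AIMP1 (0.45, SE 0.13) and RARS1, the arginine enzyme of the complex (0.24, SE 0.10). SARS1 (-1.41, SE 0.25, adjusted p = 0.143), EPRS1 (-0.94, SE 0.15, adjusted p = 0.128) and AARS1 (-0.91, SE 0.20, adjusted p = 0.172) had the largest negative differences. Without the RPMI-8226 array labelled IRE1 shRNA, EPRS1 (-1.09, limma adjusted p = 0.0252) and SARS1 (-1.71, limma adjusted p = 0.019) passed. The share of all genes called in that fit is not given here, so the 2 cannot be read as a result about the members.

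The cytosolic genes split by list. All 11 reported ATF4 targets had a negative fitted difference, from -1.41 to -0.27 with a median of -0.71, and each was negative in both lines. The median of the plasma cell markers given above was also lower on the silenced arrays of each line. In this comparison 0 of the 10 passed (limma), and neither did any gene of the array. At an unadjusted p under 0.05, 3 of the 10 were lower, where 5.58% of all genes were. PRDM1 and IRF4 passed with XBP1 shRNA against NT shRNA, but both were higher with IRE1 than with XBP1 shRNA, as given above. The part of these markers in the differences was not tested. The 6 other cytosolic genes had a median of -0.09, 3 of them negative and 3 positive, between -0.25 and 0.24. The 15 mitochondrial genes had a median of -0.09, 12 of them negative, between -0.33 and 0.17, and the median of all genes was 0.0054. The lowest reported ATF4 target was thus SARS1, and the nearest to 0 were LARS1, the leucine enzyme (-0.27), NARS1, the asparagine enzyme (-0.31), and IARS1, the isoleucine enzyme (-0.34). LARS1 and NARS1 lay within the range of the mitochondrial genes. Because the list was taken up with results of these arrays known, its counts are a description and no independent evidence of a direction.

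Counted without a model, all silenced arrays lay below all controls of their own line, in both lines, for 6 members (EPRS1, IARS1, AARS1, SARS1, WARS1 and PARS2), where 4.76% of all genes did. They lay above for 3 members (RARS1, MARS2 and AIMP1), where 4.55% of all genes did. In JJN3 alone, 11 of 11 reported ATF4 targets, 3 of 6 other cytosolic and 5 of 15 mitochondrial genes were below, against 21.8% of all genes. In RPMI-8226 alone these counts were 5, 1 and 1, against 14.7%. PARS2, the mitochondrial proline enzyme, shows how small such a separation can be, since in RPMI-8226 it stood at -0.15 and -0.13 on the controls and at -0.20 and -0.18 on the silenced arrays. In JJN3 it stood at 0.27 and 0.53 against 0.17 and 0.13. A lower signal from a culture does not tell fewer cells with the transcript from less transcript per cell.

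**Figure D3:**
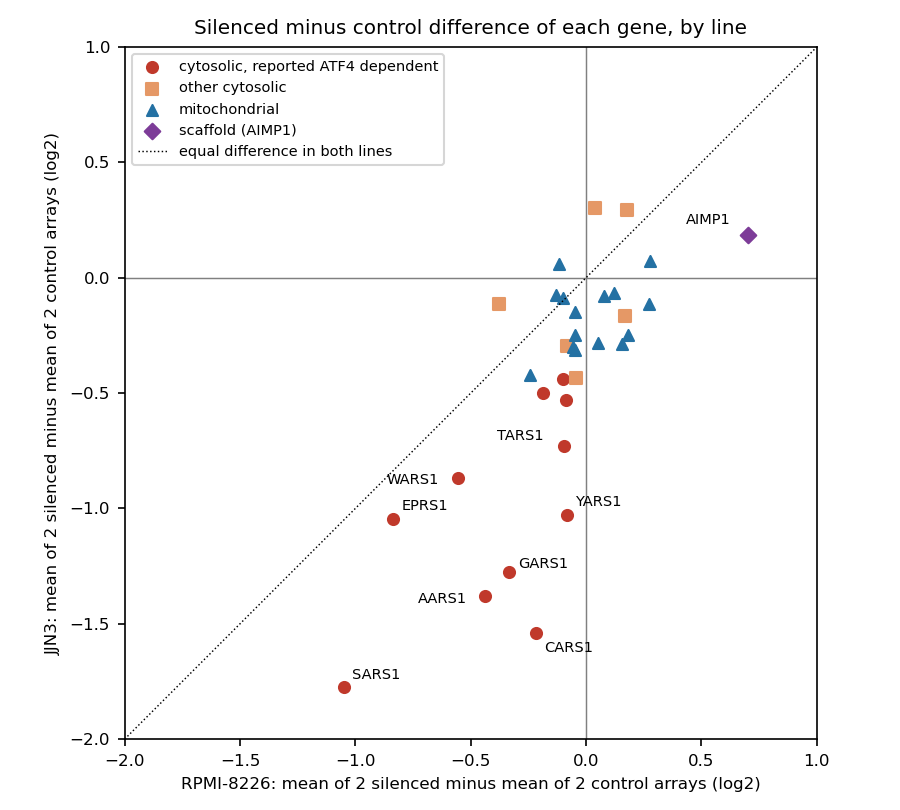
Silenced minus control difference (log2, mean of 2 arrays against mean of 2 arrays) of each of the 33 genes in RPMI-8226 (horizontal axis) and JJN3 (vertical axis), with marker shape by group and the line of equal difference dotted. All 11 reported ATF4 targets lie below the dotted line, with SARS1 lowest at -1.05 and -1.78, while the mitochondrial genes cluster near 0.

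Whether the silencing effect differed between the lines was tested as an interaction, in which a line's 2 silenced arrays and its 2 control arrays stand as replicates. No member and no gene passed the limma threshold (0% in either direction). At an unadjusted p under 0.05 the effect was more negative in JJN3 for 6 members and more positive for 0, where 2.54% and 2.23% of all genes were. The 6 were AARS1 (-0.94), CARS1 (-1.32), GARS1 (-0.94), TARS1 (-0.63), YARS1 (-0.95) and AIMP1 (-0.52), with adjusted p of 0.889 for AARS1 and 0.991 for the others. GARS1, the glycine enzyme of both compartments, stood at 0.11, -0.11, -0.61 and -0.05 in RPMI-8226 and at 1.08, 0.94, 0.05 and -0.58 in JJN3. YARS1, the tyrosine enzyme, stood at -0.82, -0.01, -0.51 and -0.48 in RPMI-8226, where silenced and control arrays overlapped, and at 1.31, 1.20, 0.44 and 0.01 in JJN3, where they did not. TARS1, the threonine enzyme, stood at -0.42, -0.81, -0.80 and -0.63 and at 1.33, 1.19, 0.64 and 0.42. In JJN3 all 3 of these genes were lower on both silenced arrays than on both controls, and in RPMI-8226 none of the 3 was.

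The difference was more negative in JJN3 than in RPMI-8226 for 27 of 33 members, among them 11 of 11 reported ATF4 targets, 3 of 6 other cytosolic genes and 12 of 15 mitochondrial genes. The largest positive interaction values were those of HARS1 (0.26), FARSB (0.26) and IARS2, the mitochondrial isoleucine enzyme (0.18), each with an adjusted p of 0.991 or higher. HARS1 stood at 0.05, 0.08, 0.18 and 0.03 in RPMI-8226 and at -0.42, -0.32, -0.10 and -0.03 in JJN3, where the silenced arrays were the higher. IARS2 stood at 0.50, -0.0029, 0.0029 and 0.26 and at -0.30, -0.02, 0.02 and -0.22, with overlap in both lines. Median interaction values were -0.63, -0.05 and -0.20 in these groups, against -0.02 for all genes. The lines also differed in which shRNA gave the lowest value. Of the 11 reported ATF4 targets, 9 had their lowest RPMI-8226 value with XBP1 shRNA and 9 had their lowest JJN3 value with IRE1 shRNA. The median of the 11 stood at -0.06, -0.11, -0.51 and -0.22 in RPMI-8226 and at 1.01, 0.90, 0.11 and 0.01 in JJN3, in the order uninfected, NT, XBP1 and IRE1 shRNA. On the JJN3 silenced arrays the group thus lay closer to RPMI-8226 than on the JJN3 controls.

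The shRNAs were also set against each other. The 2 members that differed were mitochondrial enzymes, VARS2 for valine and NARS2 for asparagine, and both were lower on the arrays labelled IRE1 shRNA than on those labelled XBP1 shRNA. These directions rest on the labels, since XBP1 and ERN1 mRNA did not separate the 2 shRNAs as labelled in either line. The difference was -0.83 for VARS2 (SE 0.18, limma adjusted p = 0.0463) and -0.81 for NARS2 (SE 0.18, limma adjusted p = 0.0485), just inside the threshold, where 1.72% of all genes were called lower and 1.6% higher. With SARS2 they were also the 3 members lower at an unadjusted p under 0.05, where 8.43% of all genes were, and 0 were higher, where 7.45% were. VARS2 stood at -0.20, -0.17, 0.17 and -0.44 in RPMI-8226 and at 0.38, 0.21, 0.53 and -0.52 in JJN3. NARS2 stood at -0.17, 0.09, 0.48 and -0.20 and at -0.09, 0.16, 0.25 and -0.67. In each line both genes were highest with XBP1 shRNA and lowest with IRE1 shRNA, with the controls between, and NARS2 and VARS2 have 1 probe set each. Both calls were lost when any 1 array was left out, with adjusted p from 0.0687 to 0.403 for NARS2 and from 0.0612 to 0.39 for VARS2, the highest without the JJN3 array labelled IRE1 shRNA.

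SARS2 had the next largest negative difference between the shRNAs (-0.53, SE 0.19, adjusted p = 0.199). It stood at 0.51, 0.68, 1.08 and 0.26 in RPMI-8226 and at -0.26, -0.48, -0.33 and -0.56 in JJN3. The largest positive differences were those of SARS1 (0.38, adjusted p = 0.7), EARS2 (0.34, adjusted p = 0.343) and EPRS1 (0.31, adjusted p = 0.512). EARS2 stood at 0.39, 0.48, -0.04 and 0.42 in RPMI-8226 and at -0.11, 0.04, -0.57 and -0.35 in JJN3, so that its lowest array in each line was that with XBP1 shRNA. The value of SARS1 was 1.14 in RPMI-8226 and -0.39 in JJN3, and was -0.76 with its other probe set. The medians of the reported ATF4 targets (-0.03), other cytosolic genes (0.03) and mitochondrial genes (-0.01) all lay near the all-gene median of 0.0046. For the reported ATF4 targets this joins opposite values of the lines, a median of 0.33 in RPMI-8226, where 0 of 11 were lower with IRE1 shRNA, and of -0.35 in JJN3, where 9 of 11 were.

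The cytosolic and mitochondrial enzymes were then compared over the 8 arrays. The median of the 17 cytosolic genes minus the median of the 15 mitochondrial genes was 0.17 in uninfected RPMI-8226, -0.10 with NT shRNA, -0.43 with XBP1 shRNA and -0.12 on the array labelled IRE1 shRNA. In JJN3 it was 0.77, 0.66, 0.06 and 0.08. Both JJN3 silenced arrays lay below both JJN3 controls, and in RPMI-8226 the 2 groups did not overlap either, by -0.12 against -0.10. The lowest value of each line was that with XBP1 shRNA. As a difference of class medians, cytosolic minus mitochondrial came to -0.30 for XBP1 shRNA against NT shRNA (RPMI-8226 -0.09, JJN3 -0.55) and to -0.23 for IRE1 shRNA against NT shRNA (0.12 and -0.47). The latter ran from -0.45 to -0.017 with 1 array left out. For silenced against control it was -0.25 (-0.06 and -0.38). Since the genes were chosen with results known, these class values carry no p.

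Matched by amino acid, 13 pairs of a cytosolic and a mitochondrial enzyme were formed. EPRS1 was paired with EARS2 for glutamate. Its pair for proline, with PARS2, was not counted (silenced minus control -0.94 for EPRS1 and -0.15 for PARS2). The cytosolic partner had the lower difference in 11 of 13 pairs with XBP1 shRNA (median of the pair differences -0.50), in 7 of 13 with IRE1 shRNA (-0.07) and in 10 of 13 for silenced against control (-0.31). For serine, SARS1 differed by -1.41 and SARS2 by -0.0015 between silenced and control arrays. For alanine the values were -0.91 for AARS1 and -0.10 for AARS2, and for cysteine -0.88 for CARS1 and -0.10 for CARS2. The 3 pairs in which the cytosolic partner was not the lower were those of phenylalanine (FARSA 1.7e-05, FARS2 -0.07), histidine (HARS1 0.17, HARS2 -0.09) and arginine (RARS1 0.24, RARS2 0.08), none of them with a reported ATF4 target. The phenylalanine enzyme has 2 kinds of subunit, and its pair was formed with FARSA. The other subunit gene, FARSB, differed by -0.25, below FARS2, so the direction of this pair and the count of pairs depend on the subunit chosen.

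**Figure D4:**
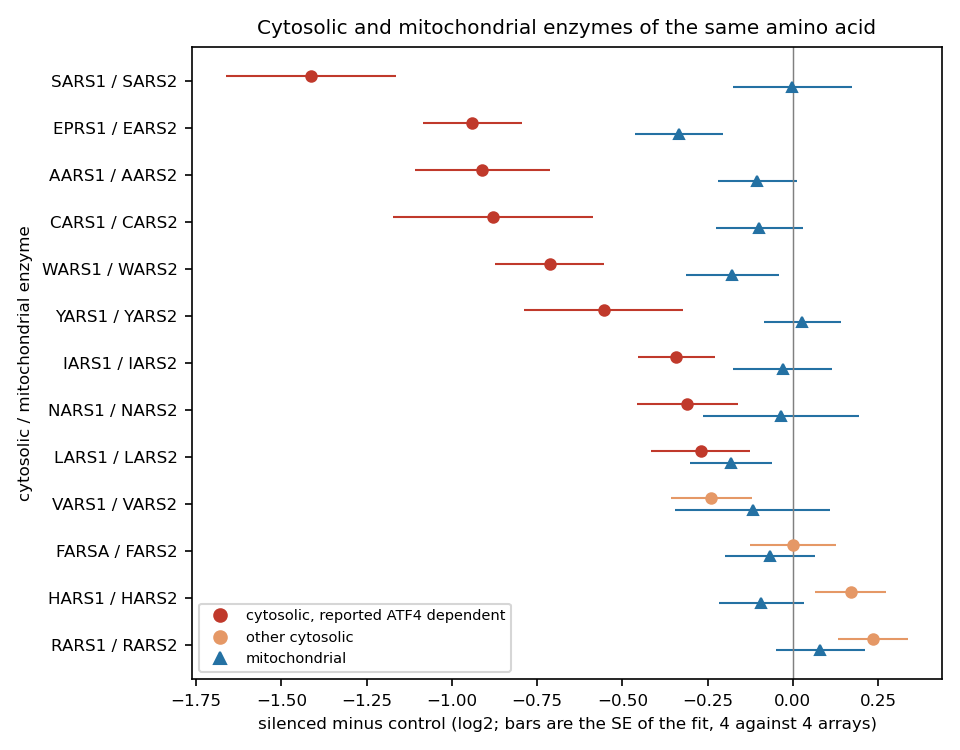
Silenced minus control difference (log2, 4 against 4 arrays, bars are the SE of the limma fit) for 13 pairs of a cytosolic (circles) and a mitochondrial enzyme (triangles) of the same amino acid. EPRS1 is paired with EARS2 only. The cytosolic value is lower in 10 of 13 pairs, and for SARS1, EPRS1, AARS1, CARS1, WARS1, YARS1 and IARS1 the bar lies wholly below that of the mitochondrial partner.

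The cytosolic enzymes were also divided by the multisynthetase complex, an assembly of several synthetases held together by the scaffolds. The 5 measured enzymes of the complex had a median silenced minus control difference of -0.27, from -0.94 (EPRS1) to 0.24 (RARS1), and the 12 free enzymes one of -0.48, from -1.41 (SARS1) to 0.17 (HARS1). In the complex the order was EPRS1, IARS1 (-0.34), LARS1 (-0.27), KARS1, the lysine enzyme (-0.19), and RARS1. KARS1 stood at 0.02, -0.15, -0.22 and -0.09 in RPMI-8226 and at 0.34, 0.34, 0.11 and -0.02 in JJN3. RARS1 stood at -0.17, -0.18, -0.0022 and 0.0022 and at -0.15, 0.08, 0.33 and 0.19, above the controls on every silenced array. The partners in the complex thus included genes on both sides of 0, and no difference between complex and free enzymes was tested. HARS1, the histidine enzyme, differed by 0.17 and VARS1, the cytosolic valine enzyme, by -0.24, with adjusted p of 0.644 and 0.547.

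Infection itself was checked by setting NT shRNA against uninfected cells. No member and no gene passed the limma threshold (0% in either direction), and 1164 genes had an unadjusted p under 0.05. WARS1 was the 1 member below that unadjusted level, lower by -0.45 (SE 0.18, adjusted p = 0.823), where 2.94% of all genes were lower, and 0 members were higher, where 2.95% were. It was lower in both lines, by -0.46 and -0.44. CARS1 (-0.43) and FARS2 (-0.27) followed. The largest positive values were those of YARS1 (0.35, from 0.80 in RPMI-8226 and -0.11 in JJN3), NARS2 (0.25) and LARS2 (0.14). LARS2, the mitochondrial leucine enzyme, stood at -0.17 without virus and 0.19 with NT shRNA in RPMI-8226 and at 0.27 and 0.20 in JJN3, so the lines went opposite ways. Of the 11 reported ATF4 targets 9 were lower with NT shRNA than in uninfected cells (median -0.12). Against uninfected cells the median of the 11 was -0.88 with XBP1 shRNA and -0.76 with IRE1 shRNA, where it was -0.57 and -0.73 against NT shRNA. With uninfected cells as the control, 3 members passed with XBP1 shRNA, namely EPRS1 (-1.07, adjusted p = 0.0249), SARS1 (-1.64, adjusted p = 0.0379) and WARS1. WARS1 differed by -0.97 in RPMI-8226 and -1.07 in JJN3, and part of this was already present with NT shRNA, as given above. The share of all genes called with this control is not given here, so the 3 cannot be read as a result about the members.

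More members passed between the lines than between treatments, and so did more of all genes. In the fit between the lines, the 4 unlike treated cultures of a line stood as its replicates, with treatment as block. In JJN3 against RPMI-8226, 14 members were higher and 6 lower (limma), where 25.4% of all genes were called higher and 43.5% lower, and the all-gene median was -0.23. At an unadjusted p under 0.05 these counts were 16 and 6, against 26.1% and 46.1%. Of the cytosolic genes 8 were higher and 2 lower (median 0.32), and of the mitochondrial genes 5 were higher and 4 lower (median -0.13). FARSB, the second subunit gene of the phenylalanine enzyme, had the largest difference (2.45, SE 0.12, adjusted p = 2.04e-07). It stood at -1.09, -1.07, -1.45 and -1.47 in RPMI-8226 and at 1.38, 1.10, 1.07 and 1.19 in JJN3, with no overlap. This rests on the probe set 232063_x_at, as the other 2 sets of FARSB gave 0.32 and 0.14. TARS1 was higher in JJN3 by 1.56 (SE 0.16, adjusted p = 2.48e-05), EPRS1 by 1.23 (SE 0.14, adjusted p = 4.87e-05) and YARS1 by 1.20 (SE 0.22, adjusted p = 0.00127). The other 2 sets of EPRS1 gave 0.47 and 0.20, the latter not past the threshold (limma adjusted p = 0.277 over all probe sets). The other TARS1 set gave 0.89, and of YARS1's 2 probe sets the other, 212048_s_at, gave -0.08. Of the 20 members called between the lines, 14 had several probe sets, and in 7 of these (KARS1, YARS1, AIMP1, AARS2, CARS2, RARS2 and WARS2) the sets differed in sign, so these calls rest on the set of highest SD.

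Among mitochondrial genes AARS2 was higher in JJN3 by 1.11 (SE 0.12, adjusted p = 3.59e-05), from -0.87 to -0.43 in RPMI-8226 and from 0.43 to 0.55 in JJN3. Its other probe set, 230024_at, gave -0.16 (limma adjusted p = 0.238). SARS2 was lower by -1.04 (SE 0.13, adjusted p = 0.000142), and FARS2 (-0.62), EARS2 (-0.56) and RARS2 (-0.49) were lower as well, RARS2 with a sign that turned to 0.32 after cyclic loess normalisation. FARS2, the mitochondrial phenylalanine enzyme, stood at 0.37, 0.06, 0.38 and 0.36 in RPMI-8226 and at -0.06, -0.31, -0.45 and -0.51 in JJN3, with no overlap between the lines. RARS2, the mitochondrial arginine enzyme, stood at 0.09, 0.21, 0.54 and 0.31 and at -0.09, -0.20, -0.42 and -0.10, also without overlap. WARS2, the mitochondrial tryptophan enzyme, was higher in JJN3 by 0.82 (SE 0.12, adjusted p = 0.000352), and its JJN3 array labelled IRE1 shRNA (0.17) lay below the other 3 of that line (0.74 to 0.78). The other 2 WARS2 sets gave -0.01 and -0.22, so its call and direction rest on 218766_s_at. WARS1 (-0.48, SE 0.12, adjusted p = 0.00801) and HARS1 (-0.31, SE 0.11, adjusted p = 0.0376) were the 2 cytosolic genes called lower in JJN3. SARS1 did not pass between the lines (-0.13, SE 0.24, adjusted p = 0.635), although its difference on silencing was the largest.

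Where a gene had several probe sets, these could be set against each other. Of the 19 members with more than 1, all sets had the same sign in 13 for silenced against control, in 13 for XBP1 shRNA and in 11 for IRE1 shRNA against NT shRNA. For CARS1, 3 of 4 sets gave -0.72, -0.88 and -0.91 for silenced against control, and the fourth gave -0.11. For LARS1 the 4 sets ran from -0.36 to 0.08. The sets of WARS1 (-0.59 and -0.71), TARS1 (-0.41 and -0.59) and YARS1 (-0.56 and -0.71) were alike.

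The other genes of the pathway were taken from lists by name. Of 33 measured genes of the ATF4 and amino acid response, 31 were lower in silenced arrays, with a median of -0.90 (by line, RPMI-8226 -0.36 and JJN3 -1.37), 0 of them past the threshold. With XBP1 shRNA against NT shRNA, 3 fell, where 1.24% of all genes were called lower. They were EIF4EBP1, a repressor of translation initiation (-2.41, limma adjusted p = 0.0113), DDIT3, the stress factor CHOP (-1.17, limma adjusted p = 0.0471), and XPOT, the nuclear exporter of tRNA (-1.07, limma adjusted p = 0.0388). Between the shRNAs, 2 genes of this list were called higher with IRE1 than with XBP1 shRNA and 0 lower, where 1.6% and 1.72% of all genes were. ATF4 mRNA stood at 0.43, 0.07, -0.15 and 0.11 in RPMI-8226 and at 0.10, -0.07, -0.85 and -1.75 in JJN3. Its lowest value over the 8 arrays was thus that of the JJN3 array labelled IRE1 shRNA. Of the 11 reported ATF4 targets, 4 had their lowest value of all 8 on that array. For 5 the lowest was the RPMI-8226 XBP1 shRNA array, where ATF4 mRNA stood at -0.15. For 1 each it was the uninfected and the NT shRNA array of RPMI-8226. Within JJN3 the array labelled IRE1 shRNA was the lowest for 9. The shares of all genes are not given here, and a link with ATF4 mRNA was not tested. In RPMI-8226 the silenced and control arrays of ATF4 overlapped. Its differences did not pass (-0.50, adjusted p = 0.56 with XBP1 shRNA and -0.82, adjusted p = 0.446 with IRE1 shRNA). All silenced arrays lay below all controls in both lines for 15 of the 33 genes, against the 4.76% given for all genes.

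Other steps of protein synthesis were covered by 4 lists. The 15 genes of cytosolic initiation and elongation had a median silenced minus control difference of 0.02, with 10 positive. With XBP1 shRNA 2 of them fell, where 1.24% of all genes were called lower. They were EIF2S3, a subunit of the factor that brings the initiator tRNA (-1.24, limma adjusted p = 0.0256), and EIF4G1, the initiation scaffold (-1.04, limma adjusted p = 0.0295). The 19 mitochondrial translation factors had a median of 0.0031, with 10 positive and none past the threshold in the comparisons with NT shRNA. The 25 genes of tRNA maturation and export had a median of -0.01. They held XPOT as the only call with XBP1 shRNA, where 1.24% of all genes were called lower and 0.961% higher. The 10 genes of tRNA editing and related steps had a median of 0.13 and the 12 interferon response genes one of 0.16. Of these lists, the ATF4 and amino acid response had the median nearest to that of the reported ATF4 targets (-0.71), and the lists were not tested against each other.

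Set beside the sequences shown at the start, the 6 reported ATF4 targets with a TGATGNAA match had silenced minus control differences from -0.91 to -0.31 with a median of -0.61, and the 3 with a window but no match (EPRS1, SARS1 and WARS1) from -1.41 to -0.71 with a median of -0.94. In RPMI-8226 the medians were -0.20 and -0.84, and in JJN3 -1.0 and -1.05. YARS2, the mitochondrial gene with a match, differed by 0.03 (SE 0.11). With 6 and 3 genes this is a description only.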

How the data were processed

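The deposited table holds log2 values of 8 arrays, made with RMA per the submitters' processing notes, which give no version, log base or centring; the scale was taken as log2 because RMA returns it. Every one of the 54675 probe sets has a median of 0 (tolerance 1e-05), so no mean expression, background or depth is known, and the number of arrays limits the precision. Symbols came from the array annotation, with 41097 probe sets carrying 1 symbol, 1801 several and 11777 unlisted. Each of the 19775 genes was represented by its probe set of highest SD, without a filter on low values. The model was limma (version 3.58.1, under R version 4.3.3, lmFit, then eBayes) on all 8 arrays. Tests were two-sided, with Benjamini-Hochberg over all 19775 genes and a threshold of 0.05. The line was the block in the comparisons of treatments, and treatment was the block between the lines. The interaction fit held the line, silencing and their product. Replicate 1 is RPMI-8226 and replicate 2 is JJN3 on the labels, so the replicate number pairs arrays of the same cell line. The code was tested on simulated data: for XBP1 shRNA against NT shRNA it recovered 38 of 100 genes changed by 1 and 92 of 100 changed by 2 (log2), among 19775 genes. Arrays were given in full for members past the threshold (at most 4 per direction) and for the 3 largest differences each way in each of the 7 comparisons; KARS1 and PARS2 in full, AARS2 and WARS2 as ranges, and the values of DDIT3 were added after they were seen. Members, lists and tests were chosen with earlier results of these data known. Alternatives were other rules for probe sets, quantile normalisation, cyclic loess, a robust prior, no block, uninfected cells as control, and each array left out.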

Additional observations from a re-analysis of the deposited data

How the results depend on the processing

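With XBP1 shRNA the count of members past the threshold (1, EPRS1) became 0 with the mean of a gene's probe sets, with the probe set of highest mean, with quantile normalisation and with no replicate block (EPRS1 at adjusted p = 1), and 3 with uninfected cells as control; leaving out 1 array gave 0 to 2, the 2 being EPRS1 and SARS1 without either array labelled IRE1 shRNA. With IRE1 shRNA the range was 0 to 1, and for silenced against control 0 to 2. Between the shRNAs the count of 2 became 0 with the mean of the probe sets, the highest mean, every probe set tested, quantile normalisation, no replicate block, and any array left out (0 to 0). With no replicate block the unadjusted p was under 0.05 for 381 genes with XBP1 shRNA. The shares of all genes past the threshold in these alternatives are not given here, so their counts cannot be read as results about the members. Cytosolic minus mitochondrial for IRE1 against XBP1 shRNA was 0.15 with means over enzymes and ran from -0.048 to 0.23 with 1 array left out. For NT shRNA against uninfected it ran from -0.29 to 0.0073, and for the interaction from -0.34 to 0.047. Of 44 values of named genes, 14 alternatives turned the sign. With the highest-mean probe set AIMP1 was -0.040 with XBP1 shRNA, -0.21 with IRE1 shRNA and -0.043 for silenced against control, and FARS2 was 0.068 for NT shRNA against uninfected. SARS1, IRE1 against XBP1 shRNA, was -0.19 (mean), -0.76 (highest mean) and from -0.37 (without the RPMI-8226 array labelled IRE1 shRNA) to 1.13 with 1 array left out. For NT shRNA against uninfected, leaving out 1 array gave CARS1 from -0.92 to 0.062 (the highest without NT shRNA in RPMI-8226), YARS1 from -0.27 to 0.97 and LARS2 from -0.088 to 0.38 (both lowest without uninfected RPMI-8226). In the interaction FARSB was -0.13 (mean) and -0.64 (highest mean), and IARS2 ran from -0.076 (without uninfected RPMI-8226) to 0.43. RARS2 between the lines was 0.32 after cyclic loess. The cause was not tested. Cyclic loess moved the share of higher among all genes called between the lines from 36.9% to 47.1%.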
